A study of Mus musculus with 6 samples.

Results

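The genes described here are 9 members of the machinery that presents peptides on major histocompatibility complex (MHC) class I molecules: H2-K1, H2-D1, H2-T23, B2m, Tap1, Tap2, Tapbp, Nlrc5 and Erap1. They were taken by name from a written list of class I heavy chain, light chain, peptide transport, peptide loading, peptide trimming and transactivator genes, and they are 9 of the 32879 genes to which the transcript records of the series were summed. All 9 were found. The series compared RNA of sorted peritoneal macrophages between lupus-prone mice with disease and mice that are not prone to lupus. It held 6 RNA sequencing libraries, 1 per mouse, with 3 mice in each group. The control mice were female [NZW × BALB/c]F1 animals of 33, 33 and 30 weeks. The diseased-BWF1 mice were female [NZB × NZW]F1 animals of 31, 31 and 34 weeks, with high titers of antibodies to double-stranded DNA and severe proteinuria. Each group was a single F1 cross, so strain and disease cannot be told apart in any comparison between the groups. The paper gives the H2 haplotype of BWF1 mice as z x d and states that the control cross shares it. Whether the H2 genes of the 2 crosses have the same sequence was not tested. The reference transcripts are those of another haplotype, and what this did to the counts of the H2 genes was not tested.

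As background, a class I molecule is a heavy chain bound to the light chain beta-2 microglobulin and to a short peptide, and it shows pieces of the proteins made inside a cell to CD8 T cells and natural killer cells. Peptides cut by the proteasome enter the endoplasmic reticulum through the transporter made of TAP1 and TAP2, are trimmed there by ERAP1, and are loaded onto the heavy chain with the help of tapasin. NLRC5 switches on the heavy chain, B2m and transporter genes, interferons raise their transcription, and macrophages of the peritoneal cavity carry class I molecules at rest.

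The libraries held 5003360, 4187106 and 3629901 counts in control mice 1, 2 and 3, and 4307327, 4226538 and 4083357 counts in diseased-BWF1 mice 1, 2 and 3. Records that matched a gene held 3376669 to 4604336 of these counts per library. A normalized count is the count of a gene divided by the DESeq2 size factor of its library, a factor that runs from 0.871 in control mouse 3 to 1.21 in control mouse 1. Differences between groups are log2 fold changes of diseased-BWF1 over control mice from the edgeR quasi-likelihood test, and a gene was called when its p adjusted over all 10505 tested genes was under 0.05 and its fold change was at least 1.5. This called 42 genes higher and 86 genes lower in diseased-BWF1 mice. Exact two-sided permutation tests on normalized counts are given beside it, and with 3 mice against 3 the smallest p they can give is 0.1.

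Control mouse 1 stood apart from the other 5 mice in these genes. Of the 9 members, 8 had their highest normalized count in that mouse, against 12.8% of all tested genes. The mean z-scored level of the members was 1.495 in control mouse 1, -0.49 in control mouse 2 and -0.37 in control mouse 3. In diseased-BWF1 mice 1, 2 and 3 it was 0.09, 0.14 and -0.87. The results are therefore given with all 6 mice and again without control mouse 1. The lowest mouse was diseased-BWF1 mouse 3 for 5 members, control mouse 3 for 3 members and control mouse 2 for 1 member.

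All 9 members passed the filter on low counts and were tested, and edgeR called 0 of the 9, against 1.22% of all tested genes. At an unadjusted p under 0.05 edgeR counted 0 of the 9 members, against 13.2% of all tested genes, and the smallest unadjusted p was 0.0905, for H2-T23, with an adjusted p of 0.474. DESeq2 called 0 of the 9, against 2.91% of the 12525 genes it tested. The normalized counts of the groups overlapped for 9 of 9 members, while 20.8% of all tested genes had groups that did not overlap. The log2 fold change was above 0 for 2 members and below 0 for 7, of which Tap2 turned to 0.020 when libraries were scaled by their size alone, with a median of -0.17 beside 0.01 over all tested genes. Without control mouse 1 it was above 0 for 5 members and below 0 for 4, with a median of 0.13 beside 0.01 over the 10791 genes then tested, and again 0 of the 9 were called. Exact permutation tests on the members gave p from 0.2 to 1. The 95% confidence intervals of all 9 log2 fold changes held 0, and 8 of them, all but that of Tap2, also reached past a fold change of 1.5 in at least 1 direction.

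**Figure D1:**
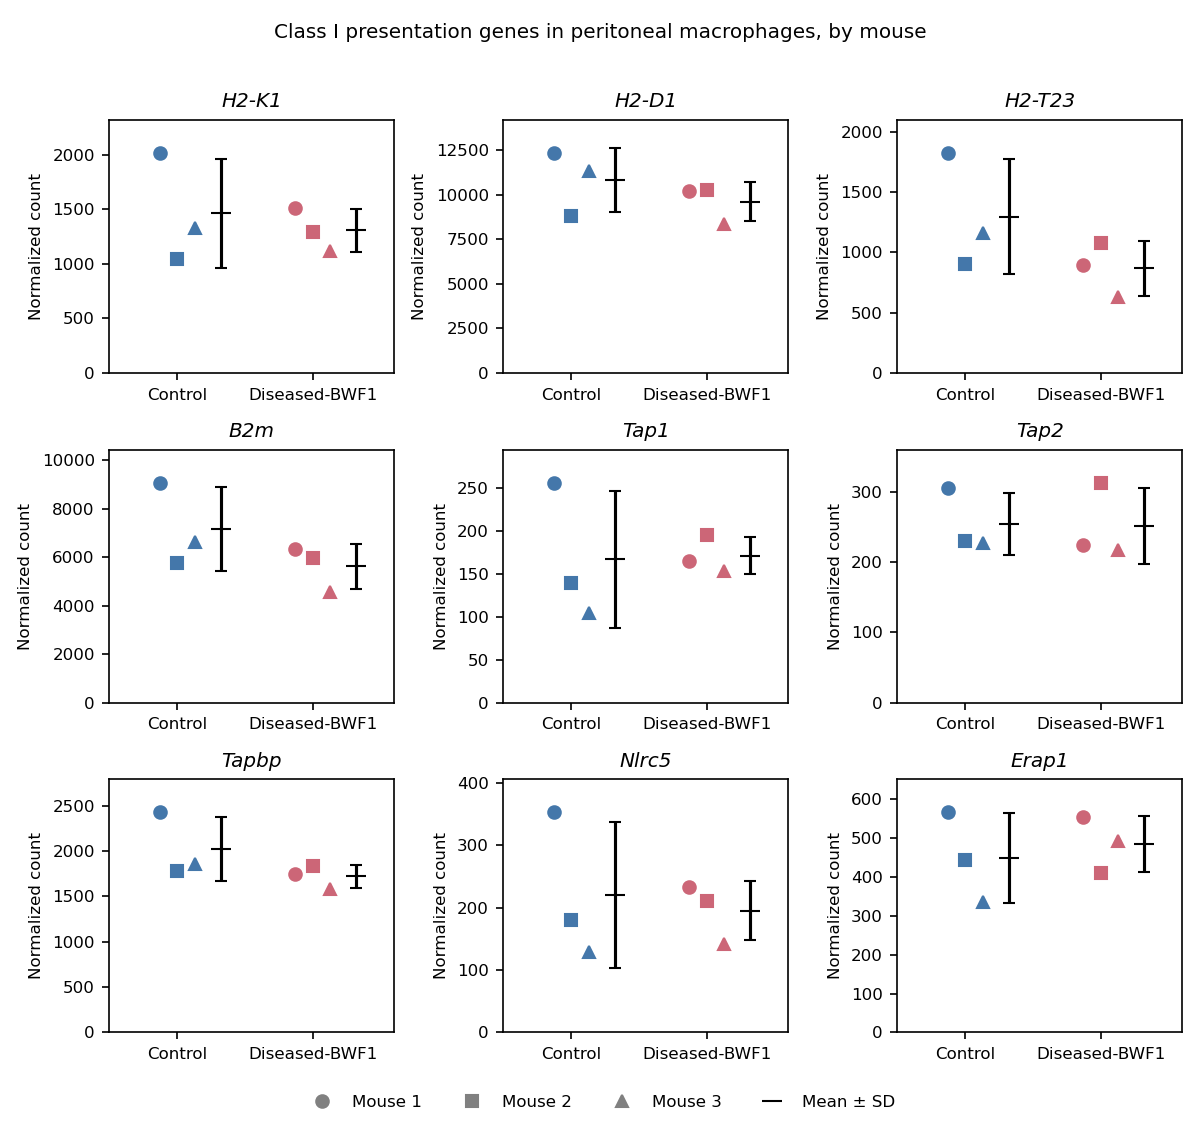
Normalized counts of the 9 class I presentation genes in each of the 6 mice, with the mean and SD of each group of 3. The highest point is control mouse 1 in every panel except that of Tap2, and the groups overlap in every panel.

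The 8 macrophage markers (Adgre1, Itgam, Csf1r, Gata6, Timd4, Icam2, Cd14 and Mertk) were all present, and they summed to 46367, 45153 and 39904 normalized counts in control mice 1, 2 and 3. The sum was 45643, 46042 and 45372 in diseased-BWF1 mice 1, 2 and 3. The most abundant of them was Itgam, which encodes CD11b, at 20818 to 27725 normalized counts. In this sum control mouse 1 did not stand apart from the diseased-BWF1 mice or control mouse 2. Among the macrophage markers, Timd4, Icam2 and Adgre1 were lower and Cd14 was higher in all 3 diseased-BWF1 mice than in all 3 control mice. Of all tested genes, 20.8% had groups that did not overlap. At an unadjusted p under 0.05 edgeR counted 1 of the 8 markers higher and 2 lower, against 13.2% of all tested genes. None of the 8 was called by edgeR or DESeq2.

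The sums of markers of other cells given here are normalized counts, and they do not cover every other cell type or show how pure the sorted cells were. In 1 list that is not named here, the sums were 23.17, 12.34 and 20.67 in control mice, against 12.28, 9.11 and 2.02 in diseased-BWF1 mice. Its groups did not overlap (exact permutation p 0.1, the smallest the design allows), and control mouse 1 was the highest. The groups overlapped for each of the lists named below. The 6 T and NK cell markers summed to 10.39 or less, and their top gene was Cd3d. The 6 neutrophil markers summed to 8.23 to 18.2, mostly S100a8, with Ly6g and Mpo at 0 in all 6 mice. The 4 dendritic cell markers summed to 30.3 to 51.9, mostly Zbtb46. The pair of monocyte markers summed to 2.30 to 31.3, mostly Ccr2, while Ly6c2 did not pass 0.83. The 4 mast cell markers summed to 2.30 or less, with top gene Cpa3 and with Mcpt4 and Tpsb2 at 0. The 3 eosinophil markers summed to 7.55 or less, from Siglecf alone, with Prg2 and Epx at 0. The 4 erythroid markers summed to 3.31 or less, with top gene Hba-a1 and with Hbb-bs and Hbb-bt at 0, and the 3 mesothelial markers to 2.06 or less, from Upk3b and Krt19 at equal values and with Msln at 0. The part of other cells in the high class I counts of control mouse 1 was not tested. In bulk RNA, fewer cells of a type and less RNA per cell cannot be told apart.

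Of the 9 members, 6 lie in the H2 region of chromosome 17 (build GRCm38.p6). They are Tapbp at chr17:33919478-33929290, H2-K1 at chr17:33996012-34000619, Tap1 at chr17:34187556-34197225, Tap2 at chr17:34204479-34216321, H2-D1 at chr17:35263094-35267497 and H2-T23 at chr17:36029977-36032701. B2m lies at chr2:122147687-122153082, Nlrc5 at chr8:94434335-94527272 and Erap1 at chr13:74639573-74693205. Tap1 starts 226 bases from Psmb9, a subunit gene of the immunoproteasome, on the opposite strand.

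The heavy chain gene H2-K1 and the light chain gene B2m are shown by a stretch of their promoters, because these genes had their highest value in the same mouse and because promoters of class I genes share known motifs. The sequences are from RefSeq, build GRCm38.p6, whose promoter table held 7 of the 9 members (all except Nlrc5 and Tap2). The stretch of H2-K1 is chr17:34000351-34000560 on the minus strand, from base -213 to base -4 counted from the more upstream of its starts in the table and inside the annotated span of the gene, which reaches farther upstream, and that of B2m is chr2:122147540-122147646 on the plus strand, from base -147 to base -41. Capitals mark the letters of 4 motifs, or of their reverse complements: GGGGATTCC (a kappa B motif), GAAACT (found in interferon response elements), TGACG (found in cyclic AMP response elements) and CCAAT (the CCAAT box).
H2-K1: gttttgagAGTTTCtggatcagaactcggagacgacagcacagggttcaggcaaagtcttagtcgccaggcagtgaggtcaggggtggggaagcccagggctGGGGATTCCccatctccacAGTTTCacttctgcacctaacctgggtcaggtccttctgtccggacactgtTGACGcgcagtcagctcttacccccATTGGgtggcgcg
B2m: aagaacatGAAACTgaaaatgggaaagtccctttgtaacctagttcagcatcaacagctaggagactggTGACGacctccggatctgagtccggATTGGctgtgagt

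The motifs were chosen after the sequences were seen, and both strands of the 250 bases before each start were searched in all 27025 promoters of the table. GGGGATTCC was in 0.218% of all promoters (59 of them) and in those of H2-K1, at -111 to -103, and H2-D1, at -171 to -163. GAAACT was in 13.7% of all promoters and in those of H2-K1, H2-D1 and B2m. TGACG was in 17.9% of all promoters and in those of H2-K1, H2-D1, B2m and Tap1. CCAAT was in 34.5% of all promoters and in those of H2-K1, H2-D1, H2-T23, B2m, Tap1 and Tapbp. None of these letters overlapped with those of another motif in the stretches shown. The window of Erap1 held none of the 4 motifs. A match describes these letters in the reference sequence and does not show that a factor binds there.

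H2-K1, which encodes a classical heavy chain, had normalized counts of 2016, 1043 and 1323 in control mice 1, 2 and 3 and of 1514, 1287 and 1118.5 in diseased-BWF1 mice 1, 2 and 3. Control mouse 1 was the highest and control mouse 2 the lowest, so that the diseased-BWF1 mice lay within the range of the controls. The mean was 1461 ± 501 (SD, n = 3) in control and 1306 ± 198 (SD, n = 3) in diseased-BWF1 mice. By edgeR, the difference on the log2 scale was -0.16 (SE 0.25, edgeR adjusted p 0.832), and without control mouse 1 it was 0.13.

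H2-D1, the other classical heavy chain gene among the members, had normalized counts of 12339.7, 8802 and 11296 in control mice and of 10210.1, 10257 and 8319.7 in diseased-BWF1 mice. Control mice 1 and 3 were above all diseased-BWF1 mice and control mouse 2 was among them. The mean was 10813 ± 1818 (SD, n = 3) in control and 9596 ± 1105 (SD, n = 3) in diseased-BWF1 mice, with a log2 fold change of -0.17 (SE 0.18, edgeR adjusted p 0.741) and of -0.08 without control mouse 1.

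H2-T23 encodes Qa-1, a heavy chain that presents signal peptides of other class I chains to receptors of natural killer cells. Its normalized counts were 1825, 902 and 1162 in control mice, against 892, 1078 and 629 in diseased-BWF1 mice. The value of control mouse 1 was well above those of the other 5 mice, and the groups overlapped because diseased-BWF1 mouse 2 was above control mouse 2. The mean was 1297 ± 476 (SD, n = 3) in control and 866 ± 225 (SD, n = 3) in diseased-BWF1 mice. At -0.58, its log2 fold change was the farthest from 0 among the members (SE 0.30, 95% confidence interval -1.29 to 0.12, edgeR adjusted p 0.474), and without control mouse 1 it was -0.26.

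Reads of near-identical heavy chains can be divided among genes, so the heavy chain counts were also summed. Runs of 75 bases, the length of a read, were compared between the reference transcripts of all genes in the GENCODE annotation. These are not the RefSeq records that were counted, and sharing in the haplotypes of these mice was not tested. Runs shared with another gene made up 3.10% of those of H2-K1, 5.40% of those of H2-D1 and 5.91% of those of H2-T23. The list held 30 heavy chain genes with a matched record, of which 23 had counts. Their summed normalized counts were 19210.4, 12155 and 15597 in control mice, against 14753, 14532 and 11580.4 in diseased-BWF1 mice. The highest sum was again that of control mouse 1, diseased-BWF1 mouse 3 was the lowest and the groups overlapped. The mean sum was 15654 ± 3528 (SD, n = 3) in control and 13622 ± 1771 (SD, n = 3) in diseased-BWF1 mice, a log2 ratio of -0.20 with an exact permutation p of 0.4. Without control mouse 1 the log2 ratio was -0.03, with an exact p of 0.9 for 2 control against 3 diseased-BWF1 mice. In each of the 6 mice H2-D1 made up most of the sum, at 64.2 to 72.4% of it, and H2-T23 5.43 to 9.50%. H2-K1 made up 9.39% on average over the mice, with a lowest share of 8.48% in control mouse 3. H2-Q4 held 2.82 to 4.65% and H2-T24 2.15 to 5.36%, the latter with its highest share in control mouse 1.

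Of the 30 listed heavy chain genes, the 3 members included, 18 were tested. edgeR called 0 of them, and at an unadjusted p under 0.05 it counted 1 higher and 2 lower, against 13.2% of all tested genes. DESeq2 called 1 higher, H2-T10, and 1 lower, H2-T22, against 2.91% of the genes it tested. The same shares of all genes apply to the counts of the other lists below. Of the 18 log2 fold changes, 6 were above 0 and 12 below, with a median of -0.17, and 11 of the 18 were highest in control mouse 1. Without control mouse 1, 11 were above 0 and 7 below, with a median of 0.13.

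The counts of H2-T23 were divided differently among its records in the groups. The sequences of its predicted records and of the records of H2-T10 were not read here, so a difference in the transcripts themselves is not shown. Its curated mRNA record NM_010398.3 had normalized counts of 1792, 871 and 1125 in control mice and of 658, 837 and 468 in diseased-BWF1 mice. The groups did not overlap in this record, with all 3 diseased-BWF1 mice below all 3 control mice (exact permutation p 0.1, the smallest the design allows). A pair of predicted mRNA records of the same gene, XM_003945738.3 and XM_006537453.2, held the same value as each other in every mouse. Together they had 33.1, 30.9 and 36.7 normalized counts in control mice, against 234, 241 and 161 in diseased-BWF1 mice. The predicted records were thus higher in all 3 diseased-BWF1 mice (exact permutation p 0.1), with means of 33.6 ± 2.97 (SD, n = 3) and 212 ± 44.1 (SD, n = 3). They made up 1.81, 3.42 and 3.16% of the counts of H2-T23 in control mice and 26.2, 22.4 and 25.6% in diseased-BWF1 mice. Groups that did not overlap were found for 20.8% of all tested genes. The share over all single records was not computed, for these records or for those below.

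A test of each record on its own, an alternative chosen after the data were seen, tested 18 of the 26 records of the members and called 0 of the 18, against 0.0639% of the 20332 records tested. It counted 4 of the 18 at an unadjusted p under 0.05, of which a pair held identical values, against 6.30% of all records tested. In it the curated record of H2-T23 had a log2 fold change of -0.95 (SE 0.35, edgeR adjusted p 0.711), and each predicted record one of 2.65 (SE 0.30, edgeR adjusted p 0.0988). The opposite directions of the records mean that the sum over records, -0.58 on the log2 scale, lay nearer to 0 than the curated record. A curated record of Tapbp, NM_009318.2, was also lower in all 3 diseased-BWF1 mice (log2 fold change -0.38, edgeR adjusted p 0.773). In H2-T23, the difference of the predicted records rested on 15 to 20 counts per record and library in control mice and 80 to 124 in diseased-BWF1 mice.

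H2-T10 and H2-T22 encode heavy chains that bind no peptide and are recognized by gamma delta T cells, and they had the smallest p among the heavy chain genes. H2-T10 had 30.6, 18.5 and 33.3 normalized counts in control mice, against 72.7, 65.8 and 73.6 in diseased-BWF1 mice. All 3 diseased-BWF1 mice were above all 3 control mice. Its log2 fold change was 1.36 (SE 0.25, edgeR adjusted p 0.0549, DESeq2 adjusted p 0.00648), so that edgeR did not call it and DESeq2 did. Over the alternatives that tested genes rather than records its adjusted p ran from 0.00648 to 0.169. The curated mRNA record of H2-T10 held 6, 5 and 4 counts in control mice, against 68, 53 and 57 in diseased-BWF1 mice, with a log2 fold change of 3.54 (SE 0.38) and an edgeR adjusted p of 0.0922 over all records. Its curated non-coding record held 31, 13 and 25 counts in control mice, against 9, 12 and 16 in diseased-BWF1 mice, so the records of this gene too divided differently between the groups.

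H2-T22 had 63.7, 105 and 67.8 normalized counts in control mice, against 41.5, 35.4 and 30.3 in diseased-BWF1 mice. All 3 diseased-BWF1 mice were below all 3 control mice. On the log2 scale the fold change was -1.14 (SE 0.26, edgeR adjusted p 0.103, DESeq2 adjusted p 0.0450), and over the gene-level alternatives its adjusted p ran from 0.0450 to 0.252. H2-T10 and H2-T22 shared 581 runs of 75 bases, which are 16.0% of those of H2-T10 and 15.7% of those of H2-T22. Whether reads moved between this pair of genes was not tested.

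**Figure D2:**
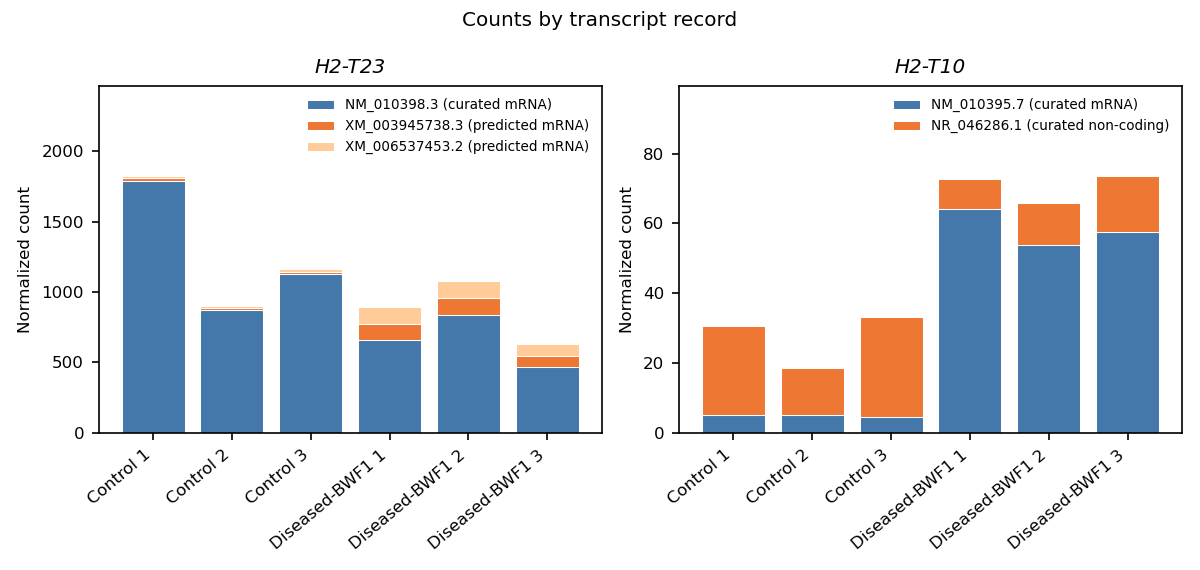
Normalized counts of H2-T23 and of H2-T10 in each of the 6 mice, stacked by transcript record. In H2-T23 the predicted records take 22.4 to 26.2% of the bar in diseased-BWF1 mice and 1.81 to 3.42% in control mice, and in H2-T10 the curated mRNA record takes 78.1 to 88.3% in diseased-BWF1 mice and 13.8 to 27.8% in control mice.

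H2-Q9 was named after its values were seen, because it was the 1 listed pathway gene called without control mouse 1. It had 19.0 normalized counts in control mouse 1, 0 in control mice 2 and 3, and 25.5, 27.3 and 29.2 in diseased-BWF1 mice. With all 6 mice its edgeR adjusted p was 0.481, and without control mouse 1 it was 0.0476, within a range from 0.0476 to 0.691 over the gene-level alternatives. The call without control mouse 1 therefore set 3 diseased-BWF1 mice against 2 control mice with no counts.

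The division of counts among the records of H2-K1 and Nlrc5 also differed between mice. Of the 8 records of H2-K1, the curated one held 68.4 to 82.9% of the gene's counts, and the predicted record XM_006523676.3 held 202 counts in control mouse 1 and 2 or fewer in every other mouse. Of the 6 records of Nlrc5, the curated one held 99 counts in control mouse 3, 24 in diseased-BWF1 mouse 1 and 0 in the other 4 mice. A predicted record of Nlrc5, XM_011248428.1, held 38, 0 and 13 counts in control mice, against 51, 121 and 48 in diseased-BWF1 mice, without overlap of the groups (log2 fold change 2.22, SE 1.36, edgeR adjusted p 1.00). Sums per gene do not depend on such divisions.

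Among class I-like heavy chain genes, whose products also pair with beta-2 microglobulin or resemble class I chains, 4 of 7 were tested. edgeR and DESeq2 called 0, and at an unadjusted p under 0.05 edgeR counted 0. The median log2 fold change was -0.18, with 2 above and 2 below 0, and 0 of the 4 were highest in control mouse 1. Fcgrt, the chain of the neonatal Fc receptor, had 1521, 1648 and 2340.3 normalized counts in control mice, against 1036, 1664 and 1365 in diseased-BWF1 mice (log2 fold change -0.44, edgeR adjusted p 0.482). Hfe, a regulator of iron uptake, had a log2 fold change of 0.33 (edgeR adjusted p 0.485), and Cd1d1, which presents lipids, of -0.37 (edgeR adjusted p 0.584). The groups overlapped for each of these 3 genes. Without control mouse 3 the log2 fold change was -0.23 for Fcgrt and -0.13 for Cd1d1, and without diseased-BWF1 mouse 3 that of Hfe was 0.20.

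B2m encodes the light chain that every classical class I molecule needs. It had normalized counts of 9072, 5749.5 and 6629 in control mice and of 6332, 5957 and 4562 in diseased-BWF1 mice. Its highest mouse was control mouse 1, diseased-BWF1 mouse 3 was the lowest, and the other 4 mice lay close to each other. The mean was 7150.4 ± 1722 (SD, n = 3) in control and 5617 ± 933 (SD, n = 3) in diseased-BWF1 mice. The edgeR log2 fold change was -0.35 (SE 0.22, adjusted p 0.557) with all mice and -0.15 without control mouse 1. B2m shared 0 of its runs of 75 bases with other genes and was counted on 1 record.

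The ratio of the summed heavy chain counts to B2m counts, which does not depend on library size, was 2.12, 2.11 and 2.35 in control mice, against 2.33, 2.44 and 2.54 in diseased-BWF1 mice. The groups overlapped through diseased-BWF1 mouse 1 and control mouse 3 (exact permutation p 0.2). In this ratio control mouse 1 did not stand apart from control mouse 2.

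Tap1 and Tap2 encode the partner chains of the peptide transporter. Tap1 had normalized counts of 256, 139.9 and 104.5 in control mice and of 165, 195 and 153 in diseased-BWF1 mice. Control mouse 1 was the highest and control mice 2 and 3 were the lowest, so the diseased-BWF1 mice lay within the range of the controls. The mean was 167 ± 79.5 (SD, n = 3) in control and 171 ± 21.7 (SD, n = 3) in diseased-BWF1 mice. By edgeR, the difference on the log2 scale was 0.03 (SE 0.31, edgeR adjusted p 0.984) with all mice and 0.48 without control mouse 1 (edgeR adjusted p 0.435).

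Tap2 had normalized counts of 304, 229 and 227 in control mice and of 224, 313 and 217 in diseased-BWF1 mice. It was the only member that was not highest in control mouse 1: diseased-BWF1 mouse 2 was the highest, followed by control mouse 1, and the other 4 mice were within 217 to 229. The mean was 254 ± 43.9 (SD, n = 3) in control and 251 ± 53.6 (SD, n = 3) in diseased-BWF1 mice, and the log2 fold change was -0.02 (SE 0.19, edgeR adjusted p 0.982). Without control mouse 1 it was 0.13.

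Tapbp encodes tapasin, which tethers the heavy chain to the transporter. Its normalized counts were 2426, 1779.7 and 1856 in control mice, against 1747, 1834 and 1584 in diseased-BWF1 mice. Control mice 1 and 3 were above all diseased-BWF1 mice, and control mouse 2 was between diseased-BWF1 mice 1 and 2. The mean was 2020.45 ± 353 (SD, n = 3) in control and 1722 ± 127 (SD, n = 3) in diseased-BWF1 mice. By edgeR, the difference on the log2 scale was -0.23 (SE 0.16, edgeR adjusted p 0.598), and -0.09 without control mouse 1.

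**Figure D3:**
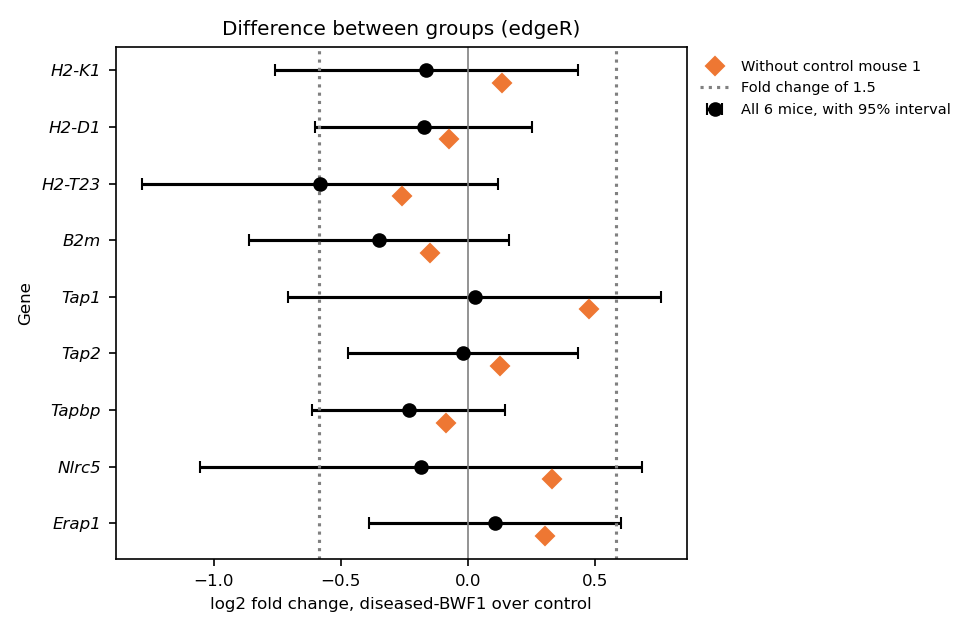
Log2 fold changes of the 9 members, diseased-BWF1 over control mice, from edgeR with 95% confidence intervals over all 6 mice, and the log2 fold changes without control mouse 1. All 9 intervals hold 0, and leaving out control mouse 1 moves every member to the right.

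Among 13 listed genes of peptide loading and of endoplasmic reticulum chaperones, 13 were tested and edgeR and DESeq2 called 0. At an unadjusted p under 0.05 edgeR counted 1, Pdia3. Of the 13 log2 fold changes, 5 were above 0 and 8 below, with a median of -0.09, and only 1 of the 13 was highest in control mouse 1. Control mouse 3 was the highest for 7 of them, and for 25.0% of all tested genes, the largest share of any mouse. Pdia3, a thiol oxidoreductase of the peptide loading complex, had 4617, 4637 and 5479.9 normalized counts in control mice, against 3691, 3597 and 3291 in diseased-BWF1 mice. All 3 diseased-BWF1 mice were below all 3 control mice. The log2 fold change was -0.48 (SE 0.14, edgeR adjusted p 0.198). DESeq2 gave an adjusted p of 0.0248, at a fold change under 1.5, and the adjusted p over the gene-level alternatives ran from 0.0248 to 0.409. Calr, which encodes calreticulin, another part of the complex, was also lower in all 3 diseased-BWF1 mice, at 5177, 4603 and 4555 against 5297, 5659 and 6797 normalized counts in control mice (log2 fold change -0.31, edgeR adjusted p 0.462). For the chaperone genes Hsp90b1 and Hspa5 the groups overlapped, with log2 fold changes of -0.15 and -0.02, the latter above 0 with scaling by library size alone.

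Erap1 encodes the aminopeptidase that trims peptides in the endoplasmic reticulum. Its normalized counts were 567, 444 and 336 in control mice, against 553, 409 and 493 in diseased-BWF1 mice. Control mouse 1 was the highest and control mouse 3 the lowest, so the diseased-BWF1 mice lay within the range of the controls. The mean was 449 ± 115 (SD, n = 3) in control and 485 ± 72.4 (SD, n = 3) in diseased-BWF1 mice, with a log2 fold change of 0.11 (SE 0.21, edgeR adjusted p 0.871) and of 0.30 without control mouse 1.

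Of 9 other listed peptide trimming genes, 9 were tested and edgeR and DESeq2 called 0. Of the 9 log2 fold changes, 5 were above 0 and 4 below, with a median of 0.06, and 0 of the 9 were highest in control mouse 1. Lap3, a leucine aminopeptidase, was the 1 gene of the list at an unadjusted p under 0.05, with 143, 90.5 and 150.4 normalized counts in control mice, against 98.2, 89.1 and 80.7 in diseased-BWF1 mice (log2 fold change -0.52, edgeR adjusted p 0.372). Its groups overlapped through control mouse 2. The log2 fold changes of Lnpep, Tpp2, Ide and Thop1 were 0.47, -0.16, 0.11 and 0.39, with overlapping groups for each, and that of Lnpep was 0.11 without control mouse 3.

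The immunoproteasome, whose subunits replace those of the constitutive proteasome under interferon, cuts proteins into peptides suited to class I. All 5 listed genes of it and of its activator PA28 were tested and edgeR and DESeq2 called 0, with 0 at an unadjusted p under 0.05. All 5 were highest in control mouse 1. Psmb8, a catalytic subunit, had 450.1, 244 and 262 normalized counts in control mice, against 384, 310 and 248 in diseased-BWF1 mice. Over the 5 genes the log2 fold changes ran from -0.27 to -0.02 with all mice, although 3 of them, with Psmb8 and Psmb10 included, turned above 0 when libraries were scaled by their size alone, and without control mouse 1 all 5 were above 0, with medians of -0.03 and 0.14. For Psmb9, next to Tap1, the values were 162, 94.6 and 71.2 in control mice, against 109.5, 85.1 and 79.7 in diseased-BWF1 mice. The same mouse was therefore highest for Tap1 and for its neighbour. Psmb10 had a log2 fold change of -0.03 and Psme1, a subunit of PA28, of -0.08.

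Of 5 genes of constitutive catalytic subunits and other activators, 0 were highest in control mouse 1, against 12.8% of all tested genes. All 5 were tested, edgeR and DESeq2 called 0, and 1 was at an unadjusted p under 0.05. That gene, Psme3, which encodes another activator of the proteasome, had 220.1, 230.4 and 201 normalized counts in control mice, against 279, 247 and 305 in diseased-BWF1 mice. All 3 diseased-BWF1 mice were above all 3 control mice, with a log2 fold change of 0.35 (SE 0.13, edgeR adjusted p 0.306). Psme4 had a log2 fold change of 0.15 and Psmb7, a catalytic subunit, of -0.13.

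Nlrc5 encodes the transactivator of class I genes. Its normalized counts were 353, 180.0 and 129 in control mice, against 233, 211 and 142 in diseased-BWF1 mice. Control mouse 1 was the highest and control mouse 3 the lowest, and no diseased-BWF1 mouse was outside the range of the controls. The mean was 221 ± 118 (SD, n = 3) in control and 195 ± 47.4 (SD, n = 3) in diseased-BWF1 mice. By edgeR, the difference on the log2 scale was -0.18 (SE 0.37, edgeR adjusted p 0.874), and 0.33 without control mouse 1.

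Of 12 other listed factors of class I transcription, 12 were tested, edgeR and DESeq2 called 0, and 1 was at an unadjusted p under 0.05. With 6 above and 6 below 0, they had a median log2 fold change of 0.04, and 1 of the 12 was highest in control mouse 1. The gene highest in control mouse 1 was Irf1, which encodes an interferon-induced factor, at 575, 406 and 339.9 normalized counts in control mice, against 394, 429 and 338 in diseased-BWF1 mice (log2 fold change -0.19). Atf1, the gene at an unadjusted p under 0.05, had 179.5, 171 and 170.0 normalized counts in control mice, against 204, 206 and 215 in diseased-BWF1 mice, with groups that did not overlap (log2 fold change 0.26, SE 0.11, edgeR adjusted p 0.375). Nfkb1, with a log2 fold change of 0.31 (edgeR adjusted p 0.424), was also higher in all 3 diseased-BWF1 mice, and Irf2 had a log2 fold change of -0.13.

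Interferons act on class I genes through their receptors. Of 7 listed genes of interferon receptors and their kinases, 7 were tested, edgeR called 0 and DESeq2 called 1 lower, Ifnar2, which was also the 1 gene at an unadjusted edgeR p under 0.05. The median log2 fold change of the 7 genes was 0.03, and 1 of them was highest in control mouse 1. Ifnar2, a chain of the type I interferon receptor, had 832, 804 and 926 normalized counts in control mice, against 565, 568 and 474 in diseased-BWF1 mice. All 3 diseased-BWF1 mice were below all 3 control mice, and control mouse 1 lay between the other controls. The log2 fold change was -0.68 (SE 0.14, edgeR adjusted p 0.0730, DESeq2 adjusted p 0.00156), with an adjusted p from 0.00156 to 0.195 over the gene-level alternatives. Ifngr1, a chain of the interferon gamma receptor, was higher in all 3 diseased-BWF1 mice (log2 fold change 0.36, edgeR adjusted p 0.387), and Jak1 had a log2 fold change of -0.06.

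Of 21 listed interferon-stimulated genes, 18 were tested, edgeR and DESeq2 called 0, and 2, Bst2 and Ifi44, were at an unadjusted p under 0.05. The highest mouse was control mouse 1 for 11 of the 18 and diseased-BWF1 mouse 2 for 5. Irf7, a transcription factor, had 2029.6, 432 and 402 normalized counts in control mice, against 721, 874 and 248 in diseased-BWF1 mice. The value of control mouse 1 was thus far above every other mouse, and the direction turned without it: the log2 fold change was -0.64 (SE 0.71, edgeR adjusted p 0.760) with all mice and 0.55 without control mouse 1. Bst2, which encodes tetherin, had 429, 212 and 294 normalized counts in control mice, against 164, 191 and 128 in diseased-BWF1 mice. The groups did not overlap (log2 fold change -0.96, SE 0.27, edgeR adjusted p 0.187). Ifi44 had 308, 78.2 and 54.0 normalized counts in control mice, against 45.3, 51.7 and 11.1 in diseased-BWF1 mice, again without overlap (log2 fold change -2.03, SE 0.76, edgeR adjusted p 0.314, and -0.88 without control mouse 1). The guanylate-binding protein genes Gbp3 and Gbp7 were highest in control mouse 1 with overlapping groups, at log2 fold changes of -0.46 and -0.11, and without control mouse 1 that of Gbp3 was -0.07. Of the 18 log2 fold changes, 10 were above 0 and 8 below with all mice, and 14 were above and 4 below without control mouse 1. The groups did not overlap for 1 gene that was higher and 2 that were lower, against 20.8% of all tested genes. The median over the 18 genes was 0.02 with all mice and 0.51 without control mouse 1.

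Class II genes, which present peptides to CD4 T cells and are not part of the class I machinery, were listed for comparison. Of 11 listed genes, 8 were tested, edgeR and DESeq2 called 0, with 0 at an unadjusted p under 0.05, and 4 were highest in control mouse 1 and the other 4 in diseased-BWF1 mouse 1. Cd74, the invariant chain, had 1936, 218 and 198 normalized counts in control mice, against 1621, 262 and 197 in diseased-BWF1 mice. Control mouse 1 and diseased-BWF1 mouse 1 were thus both several-fold above the other 4 mice. Cd74 had a log2 fold change of -0.18 with all mice and of 1.74 without control mouse 1. DESeq2 gave Cd74 no adjusted p and so could not call it. H2-Aa, a class II alpha chain, had 563, 77.2 and 55.1 normalized counts in control mice, against 519, 117 and 70.6 in diseased-BWF1 mice, with a log2 fold change of 0.01 that was 1.83 without control mouse 1. H2-DMa and H2-DMb2, which encode chains of the class II peptide exchanger, had log2 fold changes of 0.20 and -0.54. That of H2-DMb2 was -0.11 without control mouse 1 and -1.13 without diseased-BWF1 mouse 1.

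**Figure D4:**
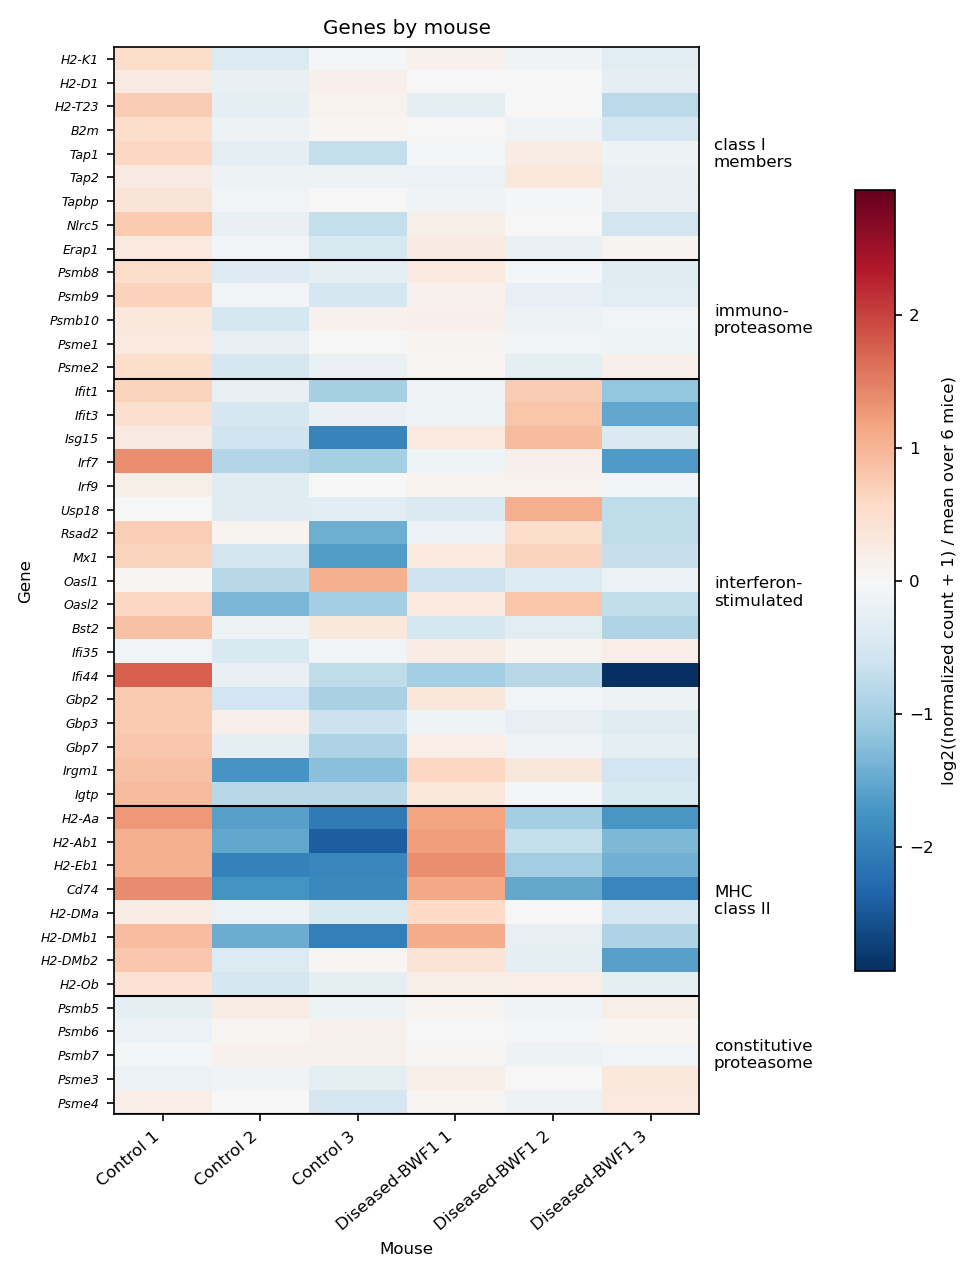
Heat map of normalized counts by gene and mouse, as log2 of the normalized count plus 1 over its mean across the 6 mice, for the class I members, the immunoproteasome, tested interferon-stimulated and class II genes, and the constitutive proteasome. Control mouse 1 is the highest mouse for 8 of 9 members, 5 of 5 immunoproteasome genes, 11 of 18 interferon-stimulated genes and 0 of 5 constitutive proteasome genes, and 4 of 8 class II genes are highest in diseased-BWF1 mouse 1.

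Over the 10 pathway lists together, which hold H2-K1, H2-D1 and H2-T23 among the heavy chains, 120 genes were listed, 112 had counts and 99 were tested. edgeR called 0 of the 99. At an unadjusted p under 0.05 it counted 3 higher and 7 lower, 10 of the 99 in all, against 13.2% of all tested genes. DESeq2 called 3, which were H2-T10 higher and H2-T22 and Ifnar2 lower, against 2.91% of all the genes it tested. The groups did not overlap for 9 genes that were higher and 8 that were lower, or 17.2% against 20.8% of all tested genes. Of the 99 log2 fold changes, 47 were above 0 and 52 below, with a median of -0.02 beside 0.01 over all tested genes. Among the 99, control mouse 1 was the highest for 34, or 34.3%, against 12.8% of all tested genes. Without control mouse 1 the median was 0.13 and edgeR called 1, H2-Q9.

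Levels were compared between members only as normalized counts per kilobase of the longest GENCODE transcript of each gene, over all 6 mice. The order from high to low was B2m at 7423 ± 1740.0 (SD, n = 6), H2-D1 at 4854 ± 714, H2-K1 at 738 ± 187, Tapbp at 646 ± 99.5, H2-T23 at 409 ± 154, Erap1 at 82.8 ± 15.6, Tap2 at 73.4 ± 12.7, Tap1 at 43.3 ± 13.3 and Nlrc5 at 27.4 ± 10.7. The level of B2m was 1.53 times that of H2-D1 and 270.4 times that of Nlrc5. The order was the same in the means of each group, with B2m at 8314 ± 2002 (SD, n = 3) in control and 6531 ± 1085 (SD, n = 3) in diseased-BWF1 mice and Nlrc5 at 29.1 ± 15.5 and 25.8 ± 6.25. The ranges of neighbours in this order overlapped over the 6 mice, except those of H2-D1 and H2-K1 and those of H2-T23 and Erap1. With the length of the coding sequence in place of the transcript, Tapbp at 1338 per kilobase passed H2-K1 at 1249.9, and the order of the other members was the same. B2m was then at 17881.5 and Nlrc5 at 36.2 per kilobase, so the ratio between them was larger than with the transcript length.

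**Figure D5:**
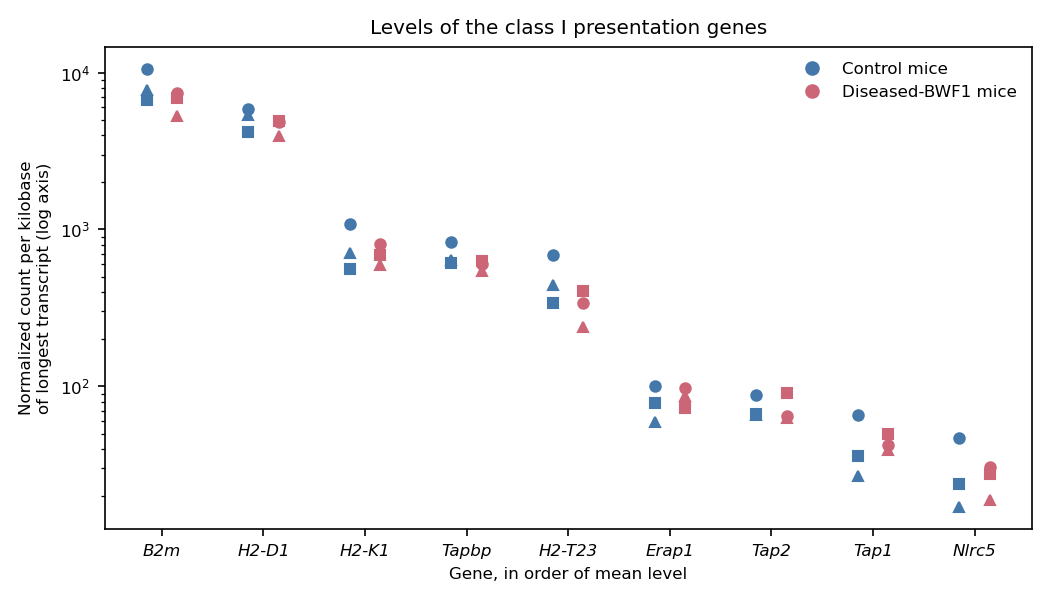
Normalized counts per kilobase of the longest transcript for each member and mouse, on a log axis, in order of the mean over 6 mice, with circles, squares and triangles for mice 1, 2 and 3 of each group. The members run from B2m at a mean of 7423 to Nlrc5 at 27.4, and within each member the spread between mice is small beside that range.

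The 5 tested genes whose pattern over the 6 mice was most like the mean z-scored level of the members, by Pearson r of log2 library-scaled counts, were Iigp1 (r 0.991), H2-T24 (0.990), Ly6e (0.990), Psmg4 (0.980) and Irf7 (0.980). Their Spearman rho ran from 0.943 to 1. All 5 were highest in control mouse 1 and lowest in diseased-BWF1 mouse 3, as was the mean level by which they were chosen. These extremes and the high rho are thus not a result apart from that choice. Iigp1 had 344 normalized counts in control mouse 1 and 41.4 to 124 in the other mice, and Ly6e had 5855 in control mouse 1 and 1763 to 2992 in the other mice. Psmg4 had 36.4 in control mouse 1 and 16.1 to 23.6 in the other mice, and H2-T24 had 1030.1 in control mouse 1 and 249 to 518 in the other mice. The groups overlapped for each of these 5 genes, and their log2 fold changes with all mice ran from -0.74 for Iigp1 to -0.33 for Psmg4. Without control mouse 1 the log2 fold change was 0.62 for Iigp1, 0.12 for H2-T24, 0.27 for Ly6e and -0.02 for Psmg4. The likeness was not computed over the 5 mice that remain without control mouse 1.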

How the data were processed

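The deposited values are estimated counts (expected_counts) per RefSeq transcript record that the authors made from 75-base paired reads, and they were already whole numbers. The submitters' processing notes name Salmon 0.8.0, DESeq2 and GRCm38.p6, with no role or order. Of 107193 records, 45754 matched a gene of the RefSeq annotation in the same version and 40712 in another version, and these were summed to 32879 genes. Unmatched records held 6.98 to 10.9% of the counts of a library. The design assumed plain counts, and estimates were used in the same way. Tests used R 4.3.3, edgeR 4.0.16 (filterByExpr, TMM, quasi-likelihood, Benjamini-Hochberg over all tested genes), DESeq2 1.42.0 and limma 3.58.1. The code was tested on simulated data. Alternatives were DESeq2, limma-voom, other scalings and filters, a replicate block, age as a covariate, curated mRNA records alone, 1 summed heavy chain feature, adjusted p alone, coding lengths and leaving out each mouse. The record test and a heavy chain sum with 7 related genes were added after the data were seen. Named genes were the members, every called pathway gene, the 3 most abundant genes and the 2 with the smallest p of each list, the 5 most like the members and the cell type markers. The members and lists were chosen with earlier results of these data known. Of the marker lists of other cells, 1 is not reported here. H2-L, H2-T9, H2-M2, Nrdc and Ighm matched no gene under these names. Confidence intervals are for the log2 fold change between groups and draw on the variation between mice, whose spread is given as SD. The depth of 3629901 to 5003360 counts limits what can be said of genes with few counts.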

Additional observations from a re-analysis of the deposited data

How the results depend on the processing

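The count of class I members called was 0 under every alternative run, and for the 9 members 94 of 95 log2 fold changes under settings that kept all 6 mice had the direction given in the report, with a smallest adjusted p of 0.419. Of the 95, 9 repeat the reported fit with adjusted p alone. The test of each record is not among them, and in it the predicted H2-T23 records were at 2.65, opposite to the gene. Leaving out a mouse turned 11 of 54 member values, in 5 genes, with a smallest adjusted p of 0.412. H2-K1, Tap2 and Nlrc5 turned without control mouse 1. Tap1 turned without control mouse 2, control mouse 3 or diseased-BWF1 mouse 2, and Tap2 also without diseased-BWF1 mouse 1 or 3. Nlrc5 turned without diseased-BWF1 mouse 3 as well, and Erap1 without control mouse 3 or diseased-BWF1 mouse 1, so the direction of these 5 members rests on single libraries. The summed heavy chain level kept a negative log2 ratio under every alternative, from -0.35 to -0.03 with a mouse left out. With 3 mice per group and 3629901 to 5003360 counts per library, small differences were measured with low precision. H2-T10, H2-Q9 and the predicted H2-T23 records rested on few counts. Their SE on the log2 scale was 0.25 for H2-T10, 1.03 for H2-Q9 and 0.30 for each predicted record.

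Against 42 genes called higher and 86 called lower, DESeq2 called 125 and 240, no filter on low counts 89 and 170, at least 10 counts in every library 27 and 57, curated mRNA records only 9 and 7, and the test of each record 13 and 0. Age as a covariate called 53 lower, and leaving out a mouse gave 11 to 22 higher and 10 to 29 lower, where fewer samples were tested. For the other settings the cause was not tested. Listed pathway genes called were 0 as reported, 3 with DESeq2, 1 with no filter (H2-T10), 1 with curated mRNA records only (H2-T10), and 0 to 1 with a mouse left out, the 1 being H2-Q9 without control mouse 1.

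A replicate block on the mouse numbers called 18 genes higher and 20 lower. Same-numbered mice are different animals. Their deviations from the group means had a correlation across genes of 0.117, 0.00556 and 0.157 for mice 1, 2 and 3. Between mice of different numbers it ran from -0.144 to 0.0573. Whether libraries of the same number shared a processing batch was not tested. In the block, Hspa5 turned to 0.043, Psmb8 to 0.0071, Psmb10 to 0.000456 and Gbp7 to 0.039.

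Other log2 fold changes near 0 turned as well, and the cause was not tested. With library size alone, which moved the median of all genes by 0.04, Tap2 was 0.020, Hspa5 0.030, Psmb8 0.016 and Psmb10 0.011. With limma-voom, Hspa5 was 0.034, Psmb8 0.0062, Psmb10 0.0039 and Gbp7 0.048. Hspa5 was 0.067 with age as a covariate, Irf2 was 0.36 with curated mRNA records only, and H2-Aa was -0.0086 with no filter. With a mouse left out, the members that turned ran from -0.35 to 0.13 for H2-K1, -0.22 to 0.48 for Tap1, -0.20 to 0.13 for Tap2, -0.45 to 0.33 for Nlrc5 and -0.060 to 0.30 for Erap1. The other named genes that turned ran from -0.25 to 0.020 for Hsp90b1, -0.23 to 0.42 for Hspa5, -0.021 to 0.26 for Ide, -0.20 to 0.064 for Psme1, -0.20 to 0.31 for Psmb8, -0.24 to 0.14 for Psmb10 and -0.49 to 0.13 for Psmb9. The ranges were -0.019 to 0.31 for Psme4, -0.34 to 0.044 for Irf1, -1.002 to 0.55 for Irf7, -0.42 to 0.48 for Gbp7, -1.78 to 1.74 for Cd74, -1.32 to 1.83 for H2-Aa and -0.14 to 0.43 for H2-DMa. For Iigp1 they were -1.12 to 0.62, for H2-T24 -0.81 to 0.12 and for Ly6e -0.72 to 0.27. Of the named genes other than members, values that passed the threshold under another setting were those of H2-T10 with DESeq2, no filter and curated mRNA records only, those of H2-T22 and Ifnar2 with DESeq2, and that of H2-Q9 without control mouse 1.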
